A study of Mus musculus with 12 samples.

Results

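The heat shock chaperones described here are the products of 10 genes, listed by symbol as Hspa1a, Hspa1b, Hsph1, Hspa8, Hsp90aa1, Hsp90ab1, Dnajb1, Dnaja1, Hspd1 and Hspe1. A probe set, the unit that an Affymetrix array reports, was taken as theirs where the probe annotation gave it 1 of these symbols and no other. This gave 20 probe sets for 9 of the 10 genes, out of 12393 genes measured in all. Hsp90ab1 was not analysed here. A gene's main probe set was the one that averaged highest on the 12 arrays, and the 11 others are reported beside it.

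The samples were macrophages grown from mouse bone marrow for 5 days on the 129-SvEv-Tac background, with 1 array per sample. All cultures were given 30% L-cell medium and 10% serum. Cells of 2 genotypes were studied: p50-/-IL10-/- cells, which lack both the p50/p105 subunit of the transcription factor NF-kB and the cytokine interleukin 10 (IL-10), and IL10-/- cells, which lack IL-10 alone. Each genotype was given 1 ng/ml lipopolysaccharide (LPS, from the bacterial outer membrane) with 0.3 ng/ml IL-10, 1 ng/ml LPS alone, or no stimulus, and RNA was taken 4 h later. Each of the 6 groups held 2 arrays, called biological replicates by the labels, which do not say whether the cultures came from separate mice. All groups carry the Il10 knockout, so the cells could make no IL-10 of their own. Loss of p50 and of its precursor p105 come together in these cells and cannot be told apart.

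Heat shock chaperones bind unfolded or partly folded proteins and keep them from aggregating until they fold. The Hsp70 proteins work in a cycle of ATP hydrolysis that J-domain (Hsp40) partners start and nucleotide exchange factors such as Hsph1 reset. Hsp90 finishes the folding of kinases and receptors, and in mitochondria Hspd1 and Hspe1 form a barrel and its lid. The transcription factor HSF1 drives many of these genes through heat shock elements, which are inverted repeats of a short GAA block in promoters. In macrophages they are known as part of the response to fever, oxidants and other stresses of inflammation.

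The stretches before the transcription starts are shown because they carry the letters that HSF1 and NF-kB are known to read. RefSeq promoter windows (build GRCm38.p6, 250 bases before and 50 after a start) were found for 7 of the 10 genes, 12 windows in all, and the 150 bases before the first listed start are printed for 4 genes that stand for the patterns found. Capitals mark pairs of heat shock element blocks, spelled GAANNTTC or TTCNNGAA. Hspa1a lies on the minus strand of chromosome 17 (chr17:34972157-34972306), Hsph1 on the minus strand of chromosome 5 (chr5:149636316-149636465), Dnaja1 on the plus strand of chromosome 4 (chr4:40722318-40722467) and Hspe1 on the plus strand of chromosome 1 (chr1:55087998-55088147).
Hspa1a: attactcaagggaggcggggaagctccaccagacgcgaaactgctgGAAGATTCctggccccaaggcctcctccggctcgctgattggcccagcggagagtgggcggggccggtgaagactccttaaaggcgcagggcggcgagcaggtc
Hsph1: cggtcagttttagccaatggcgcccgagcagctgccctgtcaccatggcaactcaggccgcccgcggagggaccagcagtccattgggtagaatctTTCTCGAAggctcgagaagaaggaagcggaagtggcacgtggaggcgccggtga
Dnaja1: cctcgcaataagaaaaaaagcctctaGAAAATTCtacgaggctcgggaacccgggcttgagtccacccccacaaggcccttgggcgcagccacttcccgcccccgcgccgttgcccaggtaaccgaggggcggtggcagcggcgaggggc
Hspe1: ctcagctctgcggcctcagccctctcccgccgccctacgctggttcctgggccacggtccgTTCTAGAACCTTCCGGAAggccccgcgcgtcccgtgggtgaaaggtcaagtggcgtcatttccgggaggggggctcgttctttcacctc

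Both strands were searched for block pairs, for 3 blocks in a row (GAANNTTCNNGAA or TTCNNGAANNTTC) and for the kB consensus of NF-kB. A block pair was present in 6 of the 7 genes with a window, the exception being Dnajb1, and in 17% of the 27025 genes that have a window. The stricter run of 3 blocks was present in Hsph1, Hspd1 and Hspe1 and in 0.662% of those genes. In Hsph1 it lay 16 to 28 bases after the start and read TTCTGGAAAGTTC, on the minus strand at chr5:149636288-149636300. Hspd1 and Hspe1 are divergent neighbours whose first windows overlap by 285 bases, so the capitals printed for Hspe1 are also the element of Hspd1. The kB consensus matched in Hspa1a, Hspa1b, Hspd1 and Hspe1, and in 12.6% of those genes. In Hspa1a it matched 133 to 124 bases (GGGAAGCTCC) and 105 to 96 bases (GGAAGATTCC) before the start. The match nearer the start covers the capitals. The kB pattern as searched thus allowed A as well as G at base 3, and the match over the capitals has A there. The windows of Hspa1a and Hspa1b differed at 4 of 300 bases, and at 1 of the 150 printed, so Hspa1b (chr17:34959239-34959388, minus strand) is not printed again. A gene was counted where any of its windows matched. Dnaja1 held its block pair in the first of its 3 windows only, and the second window of Hspd1 held none of the motifs searched for. Hspa1a and Hspa1b were counted separately despite their near-identical windows, as were Hspd1 and Hspe1 despite their overlap. Letters that match a motif describe the window and do not show that a factor binds there.

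**Figure D1:**
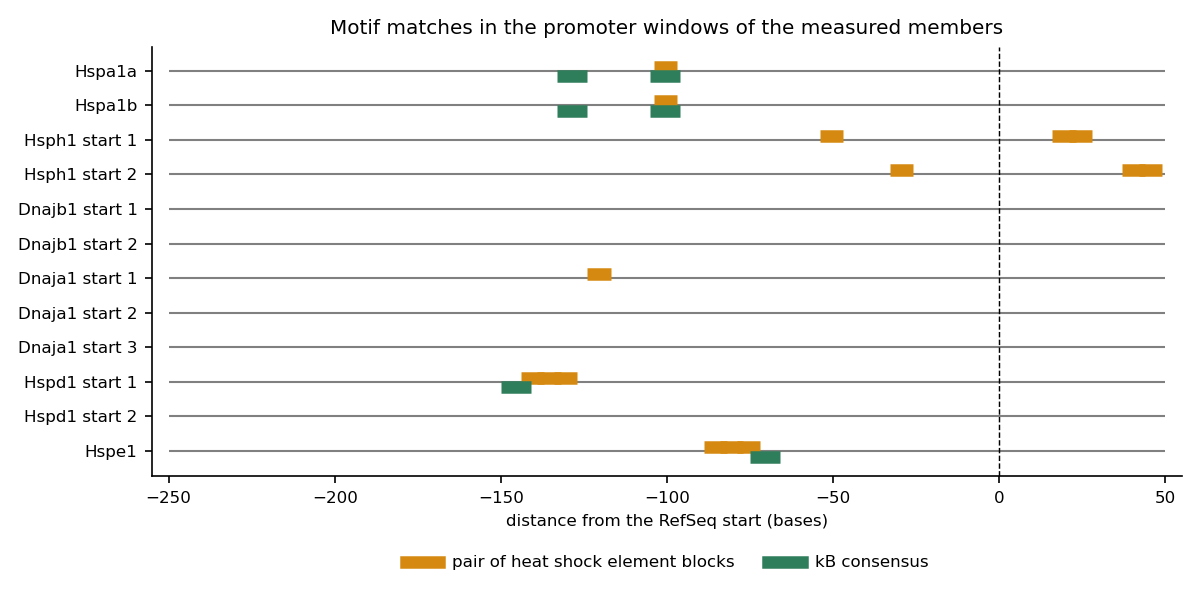
Motif matches in the 12 promoter windows of the 7 genes with a window, drawn against the distance in bases from the RefSeq start (dashed line). Orange bars are pairs of heat shock element blocks and green bars the kB consensus. Hspa1a and Hspa1b share 1 layout with 1 block pair and 2 kB matches, the runs of adjoining orange bars in Hsph1, Hspd1 and Hspe1 are the 3-block elements, and the windows of Dnajb1 hold neither motif.

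Values are RMA expression values on the log2 scale, so a difference of 1 is a doubling, and levels are not compared between probe sets. Array medians lay between 6.92 and 6.96 and lower quartiles between 5.49 and 5.61. Replicate arrays correlated with each other at 0.992 to 0.997. Of the macrophage markers 9 of 9 stood above the lower quartile in every group (group means 7.40 to 14.07). The lowest mean was that of Mertk in IL10-/- cells with LPS and IL-10, against 10.40 there without stimulus. Probes at the 3' end of the control transcripts Gapdh and beta-actin read 0.02 to 0.54 above those at the 5' end. For Gapdh this was 0.42 and 0.43 in unstimulated IL10-/- arrays and 0.12 and 0.25 in unstimulated p50-/-IL10-/- arrays. With LPS it was 0.11 and 0.43 in IL10-/- arrays and 0.02 and 0.18 in p50-/-IL10-/- arrays. With LPS and IL-10 it was 0.09 and 0.26 in IL10-/- arrays and 0.21 and 0.13 in p50-/-IL10-/- arrays. For beta-actin it was 0.38 and 0.54 without stimulus and 0.15 and 0.39 with LPS in IL10-/- arrays. In p50-/-IL10-/- arrays the beta-actin value was 0.29 and 0.42 without stimulus and 0.16 and 0.29 with LPS. In IL10-/- cells array 2 read above array 1 in every group, for both controls. The part of this spread in the results was not tested. All 9 measured chaperones passed the filter used to leave out dim genes. Passing did not mean standing clear of the lower quartiles on each array. Hspa1a read 5.56 in unstimulated IL10-/- array 1, within their range.

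The first comparison asks how the chaperones responded to LPS. The stress-inducible Hsp70 genes Hspa1a and Hspa1b and the J-domain partner Dnaja1 rose in both genotypes, and Hspa1b rose 4.57-fold in p50-/-IL10-/- cells and 3.33-fold in IL10-/- cells. Hsph1, the exchange factor that serves Hsp70, fell in both, and so did Hspe1, the lid of the mitochondrial chaperonin. The constitutive Hsp70 gene Hspa8 and the Hsp90 gene Hsp90aa1 were not called in either genotype. In p50-/-IL10-/- cells 3 chaperones were called higher and 4 lower, where 10.3% of all genes were called higher and 22.1% lower (32.4% in either direction). In IL10-/- cells 3 were called higher and 2 lower, against 7.76% and 17.1% of all genes (24.8% in either direction).

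**Figure D2:**
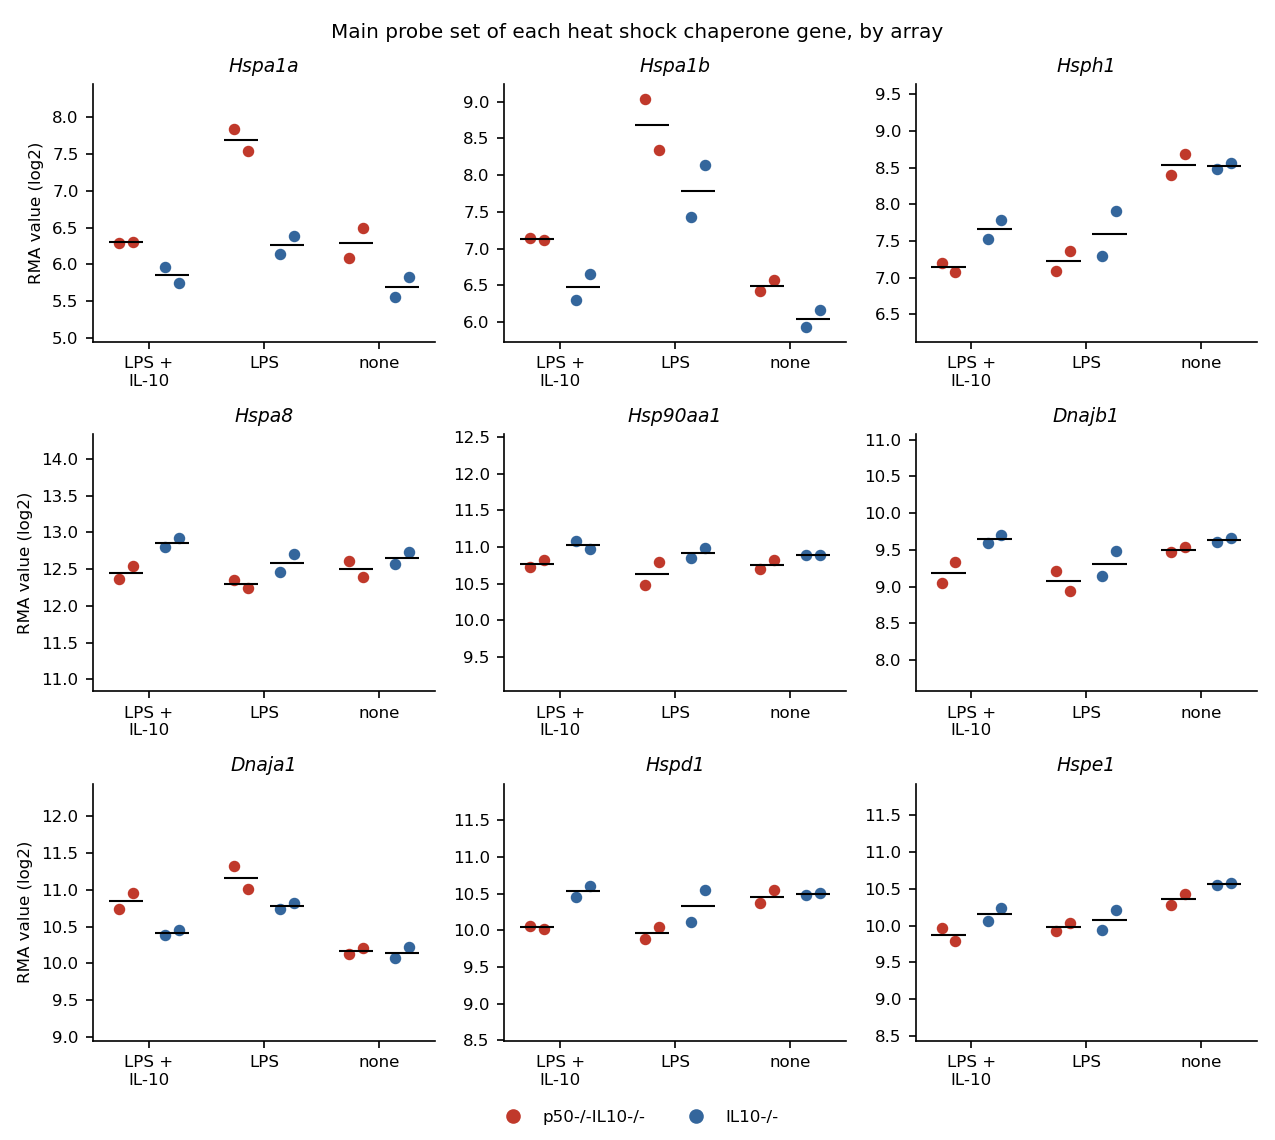
RMA values (log2) of the main probe set of the 9 measured chaperones, by stimulus along the x axis, with 1 point per array and a line at the mean of the 2 arrays (red p50-/-IL10-/-, blue IL10-/-). Every panel spans the same number of log2 units. The LPS arrays of Hspa1b read 9.04 and 8.34 in p50-/-IL10-/- cells and 7.44 and 8.13 in IL10-/- cells, above all other arrays in their panel, and the unstimulated arrays of Hsph1 stand above all other arrays in theirs.

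Among the inducible Hsp70 genes, Hspa1b (Entrez gene 15511) read 9.04 and 8.34 with LPS and 6.42 and 6.57 without stimulus in p50-/-IL10-/- cells. The Hspa1b arrays of IL10-/- cells read 7.44 and 8.13 with LPS and 5.93 and 6.17 without stimulus. In both genotypes both LPS arrays stood above both unstimulated ones, although the LPS arrays of a group lay further apart than the unstimulated ones. The log2 difference was 2.19 ± 0.25 (SE, n = 2 arrays a group throughout, adjusted p = 6.13e-05) in p50-/-IL10-/- cells and 1.74 ± 0.25 (adjusted p = 0.00045) in IL10-/- cells. Hspa1a (gene 193740), the neighbour of Hspa1b that encodes a nearly identical Hsp70, read 7.84 and 7.55 with LPS and 6.09 and 6.50 without stimulus in p50-/-IL10-/- cells. Hspa1a in IL10-/- cells read 6.14 and 6.38 with LPS and 5.56 and 5.83 without stimulus, close to the lower quartile of the arrays. There RMA can compress changes, and whether it did so here was not tested. The groups did not overlap in either genotype. The rise was 1.40 ± 0.16 (2.64-fold, adjusted p = 6.27e-05) in p50-/-IL10-/- cells and 0.56 ± 0.16 (1.48-fold, adjusted p = 0.0236) in IL10-/- cells. Probes for these 2 genes can take signal from each other, so how much of each value belongs to which gene is uncertain. The call of Hspa1a in IL10-/- cells was lost without unstimulated array 1 (adjusted p = 0.16) or LPS array 2 (adjusted p = 0.11), and it was also lost when only the groups compared entered the fit (adjusted p = 0.0503).

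Hsph1 (gene 15505), which exchanges the nucleotide on Hsp70 and can hold unfolded proteins itself, read 7.10 and 7.37 with LPS and 8.39 and 8.68 without stimulus in p50-/-IL10-/- cells. The Hsph1 arrays of IL10-/- cells read 7.29 and 7.90 with LPS and 8.48 and 8.56 without stimulus. Every LPS array was lower than every unstimulated one in both genotypes. Hsph1 fell by 1.31 ± 0.18 on the log2 scale (2.48-fold lower, adjusted p = 0.000286) in p50-/-IL10-/- cells and fell by 0.92 ± 0.18 (1.89-fold lower, adjusted p = 0.00393) in IL10-/- cells. Hspa8 (gene 15481), the Hsp70 protein that cells make without stress, read 12.35 and 12.25 with LPS and 12.62 and 12.39 without stimulus in p50-/-IL10-/- cells. Hspa8 in IL10-/- cells read 12.47 and 12.71 with LPS and 12.58 and 12.73 without stimulus. The arrays lay close together in all 4 groups, and only those of p50-/-IL10-/- cells did not overlap. The differences were -0.21 (95% interval -0.47 to 0.05) in p50-/-IL10-/- cells and -0.07 (95% interval -0.32 to 0.19) in IL10-/- cells, and neither was called (adjusted p = 0.217 and 0.752).

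Dnaja1 (gene 15502), a J-domain protein that delivers clients to Hsp70, read 11.32 and 11.01 with LPS and 10.12 and 10.21 without stimulus in p50-/-IL10-/- cells. The Dnaja1 arrays of IL10-/- cells read 10.73 and 10.83 with LPS and 10.07 and 10.22 without stimulus. Groups did not overlap in either genotype, and the unstimulated arrays of the genotypes did. Dnaja1 rose by 1.00 ± 0.12 (adjusted p = 7.69e-05) in p50-/-IL10-/- cells and by 0.63 ± 0.12 (1.55-fold, adjusted p = 0.00228) in IL10-/- cells. Dnajb1 (gene 81489) is the J-domain partner best known as heat-inducible. It read 9.22 and 8.94 with LPS and 9.47 and 9.53 without stimulus in p50-/-IL10-/- cells, a difference of -0.42 ± 0.13 that was called lower (adjusted p = 0.0327). Dnajb1 in IL10-/- cells read 9.14 and 9.48 with LPS and 9.61 and 9.66 without stimulus, a difference of -0.33 ± 0.13 that was not called (adjusted p = 0.108). The call of Dnajb1 in p50-/-IL10-/- cells was lost without unstimulated array 1 (adjusted p = 0.0883), unstimulated array 2 (adjusted p = 0.148) or LPS array 2 (adjusted p = 0.222), and with arrays centred on their medians (adjusted p = 0.0529). Without LPS array 2 of IL10-/- cells Dnajb1 was called there too (-0.49, adjusted p = 0.027).

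Hsp90aa1 (gene 15519), the cytosolic Hsp90 that heat can induce, read 10.49 and 10.79 with LPS and 10.70 and 10.83 without stimulus in p50-/-IL10-/- cells. The Hsp90aa1 arrays of IL10-/- cells read 10.85 and 10.99 with LPS and 10.89 and 10.90 without stimulus. The groups overlapped in both genotypes. The differences were -0.12 (95% interval -0.36 to 0.11) in p50-/-IL10-/- cells and 0.03 (95% interval -0.21 to 0.26) in IL10-/- cells.

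Of the mitochondrial pair, Hspe1 (gene 15528) read 9.92 and 10.04 with LPS and 10.29 and 10.43 without stimulus in p50-/-IL10-/- cells. The Hspe1 arrays of IL10-/- cells read 9.94 and 10.21 with LPS and 10.55 and 10.58 without stimulus. LPS arrays were lower without overlap in both genotypes. Hspe1 fell by 0.38 (SE 0.11, adjusted p = 0.0243) in p50-/-IL10-/- cells and fell by 0.49 (SE 0.11, adjusted p = 0.00817) in IL10-/- cells. Hspd1 (gene 15510), the barrel of the same chaperonin, read 9.89 and 10.05 with LPS and 10.37 and 10.54 without stimulus in p50-/-IL10-/- cells, a difference of -0.49 ± 0.13 that was called lower (adjusted p = 0.0145). Hspd1 in IL10-/- cells read 10.11 and 10.55 with LPS and 10.49 and 10.51 without stimulus, and the groups overlapped (difference -0.17 ± 0.13, adjusted p = 0.418). Without LPS array 2 of IL10-/- cells Hspd1 was called there as well (-0.39, adjusted p = 0.0281). These smaller changes rest on single arrays. In p50-/-IL10-/- cells both calls were lost without unstimulated array 2 (adjusted p = 0.163 for Hspe1 and 0.116 for Hspd1) and without LPS array 1 (0.146 and 0.107). In IL10-/- cells Hspe1 was not called without unstimulated array 2 (adjusted p = 0.0525) or LPS array 1 (0.0703). Leaving out unstimulated array 2 of p50-/-IL10-/- cells reduced the number of chaperones called with LPS in that genotype to 4, namely Hspa1a, Hspa1b, Hsph1 and Dnaja1.

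**Figure D3:**
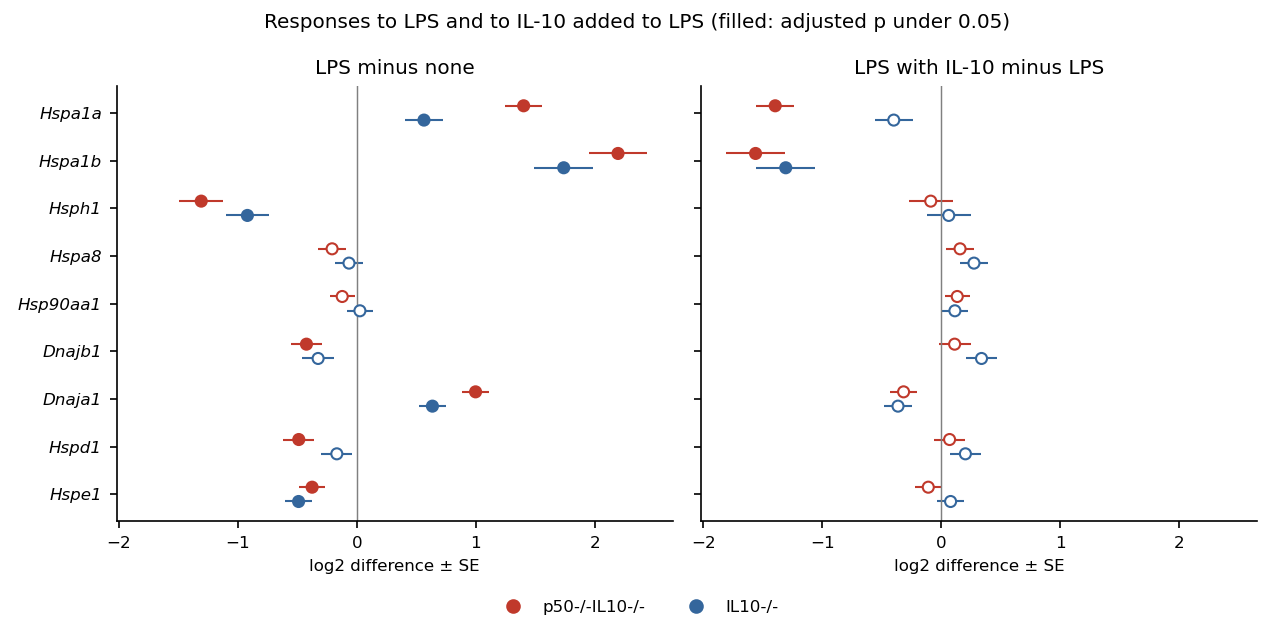
Log2 difference ± SE for the 9 measured chaperones (2 arrays a group), LPS minus no stimulus at left and LPS with IL-10 minus LPS at right, in p50-/-IL10-/- cells (red) and IL10-/- cells (blue). Filled points have an adjusted p under 0.05. With LPS, Hspa1b stands at 2.19 and 1.74 and Hsph1 at -1.31 and -0.92, and with IL-10 added the filled points are Hspa1b in both genotypes and Hspa1a in p50-/-IL10-/- cells. The panels share the LPS arrays.

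The other probe sets were fitted with all 22626 probe sets that were not controls, of which 10.2% were called higher and 17.9% lower with LPS in p50-/-IL10-/- cells, and 7.66% higher and 13.6% lower in IL10-/- cells. All 3 probe sets of Hspa1b were called higher, by 2.19 to 2.29 in p50-/-IL10-/- cells and 1.65 to 1.74 in IL10-/- cells. The dimmest of these probe sets averaged 5.33 in p50-/-IL10-/- cells and 4.77 in IL10-/- cells without stimulus. Both means lay under the lower quartile of the arrays, where RMA can compress changes. Both probe sets of Dnaja1 rose, the second by 0.92 in p50-/-IL10-/- cells and 0.63 in IL10-/- cells. Both of Hsph1 fell, and the second read 5.71 and 5.76 with LPS against 6.84 and 6.79 without stimulus in p50-/-IL10-/- cells, and 5.60 and 5.98 against 6.88 and 7.10 in IL10-/- cells. The second probe set fell by 1.08 in p50-/-IL10-/- cells and fell by 1.20 in IL10-/- cells, so the order of the genotypes differed from that of the main probe set. None of the 4 probe sets of Hspa8 or the 3 of Hsp90aa1 was called. For Dnajb1 the second probe set differed by -0.16 in p50-/-IL10-/- cells and 0.02 in IL10-/- cells and was not called, unlike the main one. For Hspe1 the second probe set differed by -0.21 in p50-/-IL10-/- cells (adjusted p = 0.204) and fell by 0.42 in IL10-/- cells (adjusted p = 0.0195).

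**Figure D4:**
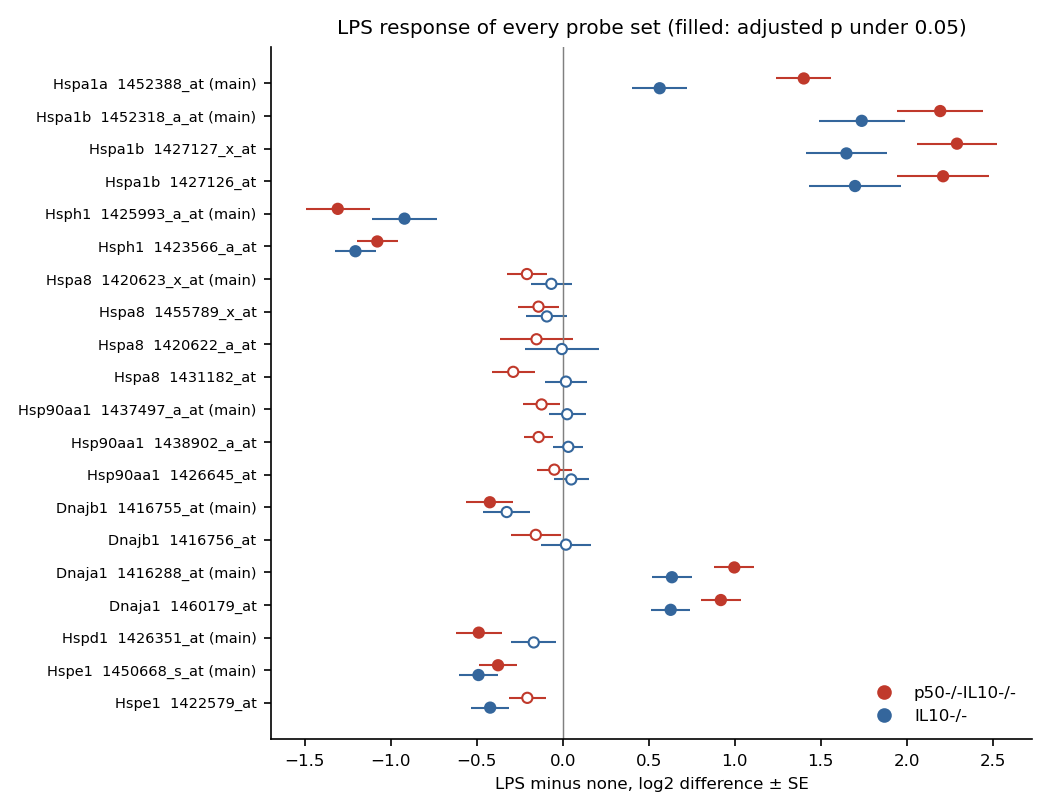
LPS response (LPS minus no stimulus, log2 difference ± SE, 2 arrays a group) of all 20 probe sets in p50-/-IL10-/- cells (red) and IL10-/- cells (blue), filled where the adjusted p over all probe sets is under 0.05. The 3 probe sets of Hspa1b lie between 1.65 and 2.29, both of Hsph1 lie between -1.31 and -0.92, and those of Hspa8 and Hsp90aa1 are unfilled points near 0.

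The next comparison asks what IL-10 added to LPS did relative to LPS alone, and it shares the LPS arrays with the LPS response. Hspa1b fell in both genotypes and Hspa1a in p50-/-IL10-/- cells, and no other chaperone was called in either by its main probe set. In p50-/-IL10-/- cells 2 chaperones were called lower and 0 higher, where 6.57% of all genes were called (3.7% higher, 2.87% lower). Among IL10-/- arrays 1 was called lower and 0 higher, where 6.17% of all genes were called (3.35% higher, 2.82% lower).

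Hspa1b read 7.15 and 7.11 in p50-/-IL10-/- cells with LPS and IL-10, against 9.04 and 8.34 with LPS. In IL10-/- cells Hspa1b read 6.30 and 6.65 with LPS and IL-10, against 7.44 and 8.13 with LPS. Both arrays with IL-10 were lower than both without it in each genotype. Hspa1b fell by 1.56 ± 0.25 on the log2 scale (2.95-fold lower, adjusted p = 0.0045) in p50-/-IL10-/- cells and fell by 1.31 ± 0.25 (2.47-fold lower, adjusted p = 0.00983) in IL10-/- cells. All 3 of its probe sets were called lower in both genotypes, where 2.32% and 2.1% of all probe sets were called lower. The differences were -1.56 to -1.47 in p50-/-IL10-/- cells and -1.42 to -1.31 in IL10-/- cells. The dimmest Hspa1b probe set averaged 5.05 in IL10-/- cells with LPS and IL-10, under the lower quartile of the arrays. The call of Hspa1b in IL10-/- cells was lost without LPS and IL-10 array 1 (-1.13, adjusted p = 0.0814), which left 0 called, and in a fit of only the groups compared (adjusted p = 0.0626). Hspa1a read 6.29 and 6.31 in p50-/-IL10-/- cells with LPS and IL-10, against 7.84 and 7.55 with LPS, and fell by 1.40 ± 0.16 (2.63-fold lower, adjusted p = 0.000704). Hspa1a in IL10-/- cells read 5.96 and 5.75 with LPS and IL-10, against 6.14 and 6.38 with LPS, a difference of -0.40 ± 0.16 that was not called (adjusted p = 0.216).

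Dnaja1 read 10.74 and 10.96 in p50-/-IL10-/- cells with LPS and IL-10 and 10.38 and 10.45 in IL10-/- cells. These arrays lay below the LPS arrays of the same genotype without overlap, but the differences of -0.32 ± 0.12 (adjusted p = 0.134) in p50-/-IL10-/- cells and -0.36 ± 0.12 (adjusted p = 0.111) in IL10-/- cells were not called. Hsph1 read 7.21 and 7.08 in p50-/-IL10-/- cells with LPS and IL-10 and 7.53 and 7.79 in IL10-/- cells. These arrays overlapped with those of LPS alone in both genotypes. The differences were -0.09 (95% interval -0.50 to 0.32) in p50-/-IL10-/- cells and 0.06 (95% interval -0.34 to 0.47) in IL10-/- cells. The second Hsph1 probe set read 6.13 and 6.19 with LPS and IL-10 against 5.60 and 5.98 with LPS in IL10-/- cells. In p50-/-IL10-/- cells that probe set read 5.54 and 5.61 against 5.71 and 5.76. Those arrays did not overlap in either genotype, but the differences of 0.37 and -0.16 were not called. Dnajb1 read 9.05 and 9.33 in p50-/-IL10-/- cells with LPS and IL-10 and 9.59 and 9.71 in IL10-/- cells. That was 0.34 ± 0.13 above LPS alone in IL10-/- cells (adjusted p = 0.22), and in p50-/-IL10-/- cells the difference was 0.11 ± 0.13 (adjusted p = 0.658). Hspa8 read 12.36 and 12.55 in p50-/-IL10-/- cells with LPS and IL-10 and 12.80 and 12.93 in IL10-/- cells, with differences from LPS alone of 0.16 ± 0.12 and 0.27 ± 0.12 that were not called (adjusted p = 0.451 and 0.258). A dim Hspa8 probe set read 6.61 and 6.87 with LPS and IL-10 against 5.91 and 6.28 with LPS in IL10-/- cells and was called higher (0.65 ± 0.12, adjusted p = 0.0146), as were 2.77% of all probe sets, while the other 3 of Hspa8 were not.

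Hsp90aa1 read 10.73 and 10.82 in p50-/-IL10-/- cells with LPS and IL-10 and 11.09 and 10.98 in IL10-/- cells. Hspd1 read 10.05 and 10.02 in p50-/-IL10-/- cells with LPS and IL-10 and 10.46 and 10.60 in IL10-/- cells. Hspe1 read 9.96 and 9.79 in p50-/-IL10-/- cells with LPS and IL-10 and 10.06 and 10.24 in IL10-/- cells. The differences of these 3 from LPS alone ran from -0.11 to 0.20 over both genotypes, and none was called (adjusted p from 0.485 to 0.835). Without LPS array 2 of IL10-/- cells Hspd1 was called higher with IL-10 there (0.42, adjusted p = 0.0466), which made 2 chaperones called.

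Cells given LPS with IL-10 were also set against unstimulated cells, which shows where each chaperone stood with both agents present. Hsph1 and Hspe1 were below the unstimulated level in both genotypes, Hspd1 was below it in p50-/-IL10-/- cells and Dnaja1 was above it there. In p50-/-IL10-/- cells 1 chaperone was called higher and 3 lower, where 37.9% of all genes were called (16.7% higher, 21.2% lower). Among IL10-/- arrays 0 were called higher and 2 lower, where 19.5% of all genes were called (6.94% higher, 12.5% lower). Hsph1 fell by 1.40 ± 0.18 on the log2 scale (2.63-fold lower, adjusted p = 0.000219) in p50-/-IL10-/- cells and fell by 0.86 ± 0.18 (1.81-fold lower, adjusted p = 0.00723) in IL10-/- cells. Hspa1a with both agents differed from unstimulated cells by 0.01 (95% interval -0.34 to 0.35) in p50-/-IL10-/- cells and by 0.16 (95% interval -0.18 to 0.51) in IL10-/- cells. Hspa1b differed by 0.63 ± 0.25 in p50-/-IL10-/- cells (adjusted p = 0.0644) and 0.43 ± 0.25 in IL10-/- cells (adjusted p = 0.286), with no overlap of arrays in either. Dnaja1 stayed 0.68 ± 0.12 above unstimulated cells in p50-/-IL10-/- cells (1.60-fold, adjusted p = 0.00118) and differed by 0.27 ± 0.12 in IL10-/- cells (adjusted p = 0.143). Hspe1 fell by 0.49 (SE 0.11, adjusted p = 0.00673) in p50-/-IL10-/- cells and fell by 0.41 (SE 0.11, adjusted p = 0.0247) in IL10-/- cells. Hspd1 fell by 0.42 (SE 0.13, adjusted p = 0.0281) in p50-/-IL10-/- cells.

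Several of these calls rest on single arrays. In p50-/-IL10-/- cells Hspd1 was not called without unstimulated array 2 (adjusted p = 0.163), LPS and IL-10 array 1 (0.0856) or LPS and IL-10 array 2 (0.112), and Hspe1 was not called without unstimulated array 2 (0.0576) or LPS and IL-10 array 2 (0.0615). In IL10-/- cells Hsph1 was not called without unstimulated array 2 (adjusted p = 0.0504) or LPS and IL-10 array 1 (0.0679), and Hspe1 was not called without those arrays (0.12 and 0.188) or without unstimulated array 1 (0.0852). The counts with 1 array left out were 2 to 4 in p50-/-IL10-/- cells and 0 to 2 in IL10-/- cells. The second Hsph1 probe set was called lower in both genotypes, with differences of -1.24 in p50-/-IL10-/- cells (adjusted p = 4.36e-05) and -0.83 in IL10-/- cells (adjusted p = 0.000958), where 17.5% and 9.7% of all probe sets were called lower. The second Hspe1 probe set was called lower in IL10-/- cells (-0.42, adjusted p = 0.0246) and not in p50-/-IL10-/- cells (-0.25, adjusted p = 0.101). Of the 3 Hspa1b probe sets 1 was called higher in p50-/-IL10-/- cells (0.82, adjusted p = 0.0242), as were 14.2% of all probe sets, and the others were not (0.63 and 0.71, adjusted p = 0.0783 and 0.0679). In a fit of only the groups compared, the main Hspa1b probe set was called higher (adjusted p = 0.00068) and Dnajb1 was called lower (-0.31, adjusted p = 0.0457) in p50-/-IL10-/- cells, which made 6 chaperones called. The dim Hspa8 probe set was called higher in IL10-/- cells (0.67, adjusted p = 0.00456), as were 7.17% of all probe sets, and the other 3 were not. Markers of other cells also differed in this comparison. In p50-/-IL10-/- cells 3 of 5 dendritic cell, 2 of 4 B cell, 2 of 3 erythroid and 1 of 6 neutrophil markers were called higher, and in IL10-/- cells 2 of 6 neutrophil markers were called lower. The B cell markers summed to 23.72 to 23.99 log2 with LPS and IL-10 and 22.54 to 23.67 without stimulus in p50-/-IL10-/- cells, and the erythroid markers to 18.4 with LPS and IL-10 and 17.5 to 17.8 without stimulus. Of the 3 measured erythroid markers, Klf1 read 6.86 with LPS and IL-10 and 6.54 without stimulus there. Alas2 read 6.05 and 5.64, and Hba-a1 read 5.53 and 5.45, near the lower quartile of the arrays. The part of these markers in the result was not tested.

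The loss of p50 was examined at each stimulus by comparing p50-/-IL10-/- with IL10-/- cells, on the same arrays as the responses above. With LPS, Hspa1a and Hspa1b were higher in p50-/-IL10-/- cells, by 2.71-fold and 1.87-fold, and no chaperone was called lower. With LPS and IL-10, Dnaja1 was higher and Hspd1, Dnajb1 and Hspa8 were lower in p50-/-IL10-/- cells. Without stimulus 0 of 9 chaperones were called, and 1 of them, Hspa1a, had an unadjusted limma p under 0.05. The share of all genes called was 18% with LPS and IL-10 (7.58% higher, 10.4% lower), 12.4% with LPS (5.66% higher, 6.72% lower) and 2.57% without stimulus (1.26% higher, 1.31% lower).

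With LPS, Hspa1a read 7.84 and 7.55 in p50-/-IL10-/- cells, against 6.14 and 6.38 in IL10-/- cells. Both p50-/-IL10-/- arrays were the highest of the 12. The difference was 1.44 ± 0.16 (adjusted p = 0.000307), and the call held whichever of the 4 arrays was dropped. Hspa1b read 9.04 and 8.34 in p50-/-IL10-/- cells with LPS, against 7.44 and 8.13 in IL10-/- cells, a difference of 0.90 ± 0.25 (adjusted p = 0.0364). Its groups did not overlap, but the nearest arrays, 8.34 in p50-/-IL10-/- cells and 8.13 in IL10-/- cells, lay closer to each other than to their replicates. The call was lost without p50-/-IL10-/- array 1 (0.55, adjusted p = 0.266), without IL10-/- array 1 (0.56, adjusted p = 0.179), in a fit of only the groups compared (adjusted p = 0.148) and with a trended prior (adjusted p = 0.0606). The other Hspa1b probe sets differed by 1.06 (adjusted p = 0.0186) and 1.07 (adjusted p = 0.031), where 5.18% of all probe sets were called higher.

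The other chaperones with LPS were not called between the genotypes by their main probe sets. The dim Hspa8 probe set read 5.60 and 5.68 in p50-/-IL10-/- cells with LPS, against 5.91 and 6.28 in IL10-/- cells, and was called lower (-0.45, adjusted p = 0.0452), as were 5.25% of all probe sets, while the other 3 of Hspa8 were not. Dnaja1 was 0.38 ± 0.12 higher in p50-/-IL10-/- cells (adjusted p = 0.0562), and it was called with a trended prior (adjusted p = 0.0493) and without p50-/-IL10-/- array 2 (0.54, adjusted p = 0.0245). Hspd1 differed by -0.36 ± 0.13 (adjusted p = 0.106) and Hsph1 by -0.37 ± 0.18 (adjusted p = 0.253), and both were called without IL10-/- array 1 (-0.58 and -0.67, adjusted p = 0.00834 and 0.0202). Hsp90aa1 differed by -0.28 ± 0.11 (adjusted p = 0.126) and was called without p50-/-IL10-/- array 2 (-0.43, adjusted p = 0.0388). Depending on which array was left out, 1 to 4 chaperones were called.

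**Figure D5:**
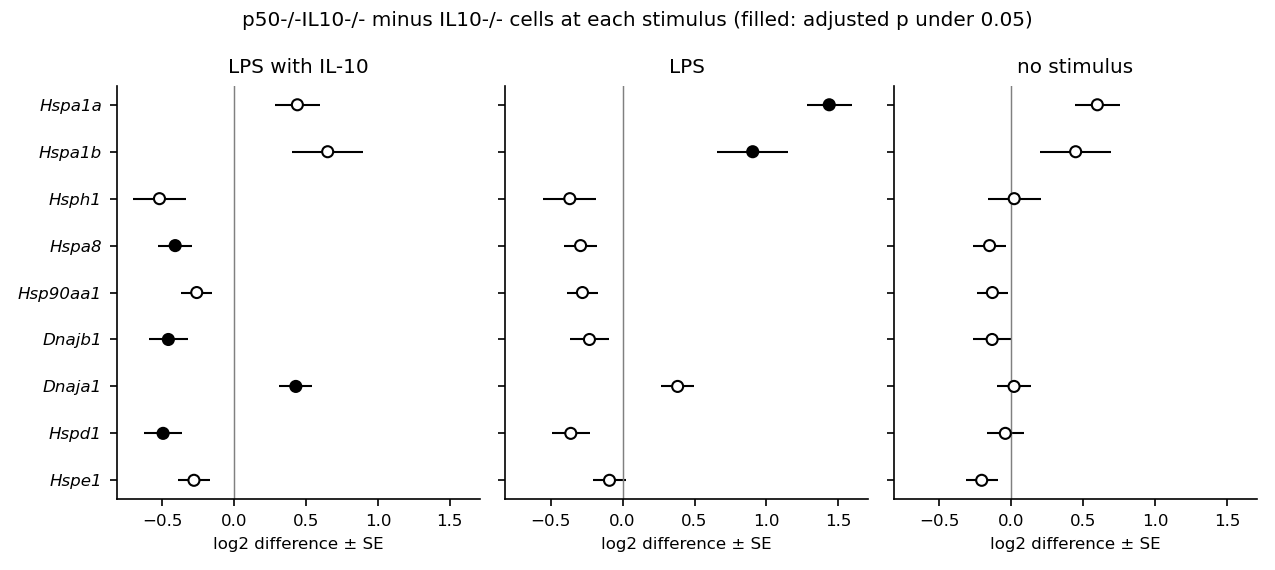
Log2 difference ± SE between p50-/-IL10-/- and IL10-/- cells (2 arrays a group) for the 9 measured chaperones, with LPS and IL-10, with LPS and without stimulus from left to right. Filled points have an adjusted p under 0.05. With LPS the filled points are Hspa1a at 1.44 and Hspa1b at 0.90, with LPS and IL-10 they are Dnaja1 at 0.43, Hspd1 at -0.49, Dnajb1 at -0.46 and Hspa8 at -0.41, and without stimulus no point is filled.

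With LPS and IL-10 the differences between the genotypes were small. Dnaja1 read 10.74 and 10.96 in p50-/-IL10-/- cells, against 10.38 and 10.45 in IL10-/- cells (0.43 ± 0.12, adjusted p = 0.0279). Hspd1 read 10.05 and 10.02 in p50-/-IL10-/- cells, against 10.46 and 10.60 in IL10-/- cells (-0.49 ± 0.13, adjusted p = 0.026). Dnajb1 read 9.05 and 9.33 in p50-/-IL10-/- cells, against 9.59 and 9.71 in IL10-/- cells (-0.46 ± 0.13, adjusted p = 0.0393). Both arrays of Dnaja1 were higher and both of Hspd1 and of Dnajb1 were lower in p50-/-IL10-/- cells. Hspa8 read 12.36 and 12.55 in p50-/-IL10-/- cells, against 12.80 and 12.93 in IL10-/- cells (-0.41 ± 0.12, adjusted p = 0.0353). All 4 calls depended on single arrays. With 1 array left out, the adjusted p of Hspa8 was 0.0613 to 0.201 and that of Hspd1 0.0517 to 0.161, so that neither was called without any one of the 4 arrays. Dnajb1 was called without p50-/-IL10-/- array 2 and not without p50-/-IL10-/- array 1 (adjusted p = 0.237), IL10-/- array 1 (0.077) or IL10-/- array 2 (0.202), nor with all probe sets in the fit (0.05001). Dnaja1 was called without p50-/-IL10-/- array 1 and not without p50-/-IL10-/- array 2 (adjusted p = 0.183), IL10-/- array 1 (0.114) or IL10-/- array 2 (0.0951).

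The probe sets of these genes disagreed in part with LPS and IL-10, where 5.86% of all probe sets were called higher and 8.56% lower. The second probe sets of Dnajb1 (-0.09, adjusted p = 0.725) and Dnaja1 (0.29, adjusted p = 0.123) were not called. The main Dnajb1 probe set differed by -0.46 and was not called in this fit either. The dim Hspa8 probe set read 5.75 and 5.70 in p50-/-IL10-/- cells, against 6.61 and 6.87 in IL10-/- cells, and was called lower (-1.02, adjusted p = 0.000761), while the brighter Hspa8 probe sets other than the main one differed by -0.24 and -0.47 and were not called. A further Hsp90aa1 probe set was called lower (-0.29, adjusted p = 0.048), and its main one was not (-0.26, adjusted p = 0.14 in the same fit). The second Hsph1 probe set was called lower (-0.59, adjusted p = 0.0107), and the main one differed by -0.52 (adjusted p = 0.0937). Of the 3 Hspa1b probe sets 2 were called higher, both by 0.98, and the main one was not (0.65, adjusted p = 0.113). The dimmest, which was among those called, averaged 5.05 in IL10-/- cells, under the lower quartile of the arrays.

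Without stimulus Hspa1a read 6.09 and 6.50 in p50-/-IL10-/- cells, against 5.56 and 5.83 in IL10-/- cells. Its groups did not overlap, and the difference of 0.60 ± 0.16 was not called (adjusted p = 0.0865). Hspa1b read 6.42 and 6.57 in p50-/-IL10-/- cells, against 5.93 and 6.17 in IL10-/- cells, a difference of 0.45 (95% interval -0.10 to 0.99). The other 7 chaperones differed by -0.20 to 0.02 without stimulus.

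Whether the responses themselves differed between the genotypes was tested as an interaction, and 0 of 9 chaperones were called. For the LPS response 2 had an unadjusted limma p under 0.05, Hspa1a with a response larger by 0.84 in p50-/-IL10-/- cells (95% interval 0.34 to 1.33, adjusted p = 0.141) and Dnaja1 with one larger by 0.36 (adjusted p = 0.497). The Hspa1b response differed by 0.46 (95% interval -0.31 to 1.23) and that of Hsph1 by -0.39 (95% interval -0.96 to 0.19). The second Hsph1 probe set differed by 0.13, so the sign depended on the probe set, and neither was called. For the IL-10 effect 1 had an unadjusted p under 0.05, Hspa1a, with a larger fall in p50-/-IL10-/- cells (difference -0.996, 95% interval -1.49 to -0.50, adjusted p = 0.171). The IL-10 effect on Hspa1b differed by -0.25 (95% interval -1.02 to 0.52). For Hsph1 it differed by -0.15 in the main probe set and -0.53 in the second, and neither was called. Few genes of any kind were called in these tests, 1.19% for the LPS response and 0.137% for the IL-10 effect.

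Over the 6 groups the chaperones varied to different degrees. Group means spanned 2.64 log2 for Hspa1b and 2.00 for Hspa1a, 1.40 for Hsph1 and 1.02 for Dnaja1. For the other 5 they spanned 0.39 (Hsp90aa1) to 0.69 (Hspe1). The Hspa1b groups ran from p50-/-IL10-/- with LPS, through IL10-/- with LPS, p50-/-IL10-/- with LPS and IL-10, p50-/-IL10-/- without stimulus and IL10-/- with LPS and IL-10, to IL10-/- without stimulus. In that order only p50-/-IL10-/- without stimulus and IL10-/- with LPS and IL-10 had overlapping arrays. For Hspa1a only p50-/-IL10-/- cells with LPS (mean 7.69) stood clear at the top, and the next 3 groups had means of 6.30 to 6.26 and overlapping arrays. Hsph1 split in another way, with the unstimulated groups of both genotypes at 8.54 and 8.52 and the other 4 between 7.14 and 7.66. For Dnaja1 the unstimulated groups lay lowest, at 10.17 in p50-/-IL10-/- cells and 10.15 in IL10-/- cells, with arrays that overlapped.

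Genes outside the set with the most similar profiles over the 12 arrays were found by Pearson correlation of the log2 values, given as a description because all genes share these arrays and groups. For Hspa1b they were Fmn1 (r = 0.97), Tox4 (r = 0.96) and Hinfp (r = 0.95). For Hspa1a they were Ube2e1 (r = 0.96), Tmem135 (r = 0.94) and Atp10a (r = 0.94). Hsph1 was closest to Ei24, Nrd1 and Uqcc3 (r = 0.99 each), and Dnaja1 to Slc7a2 (r = 0.99), Slc30a6 (r = 0.98) and Katna1 (r = 0.98). Within the set the highest correlations were 0.95 for Hsph1 with Hspe1, 0.92 for Hspa1b with Dnaja1 and 0.88 for Hspa1a with Hspa1b. The lowest was -0.85, for Hsph1 with Dnaja1. Probes for Hspa1a and Hspa1b can take signal from each other.

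The rest of the folding machinery was read from 5 lists with 81 genes, of which 76 were measured. Of 22 cytosolic relatives and co-chaperones 3 were called higher and 7 lower in p50-/-IL10-/- cells (median difference -0.11, against -0.01 for all genes) and 3 higher and 6 lower in IL10-/- cells (median -0.08, against -0.01). Of all genes 10.3% were called higher and 22.1% lower in p50-/-IL10-/- cells and 7.76% higher and 17.1% lower in IL10-/- cells, which is the background for the LPS counts of every list. Dnaja2, a J-domain partner of Hsp70 like Dnaja1, rose by 1.52 ± 0.15 in p50-/-IL10-/- cells and by 0.88 ± 0.15 in IL10-/- cells. Stip1, the adaptor that links Hsp70 to Hsp90, rose by 0.92 ± 0.08 in p50-/-IL10-/- cells and by 0.94 ± 0.08 in IL10-/- cells. Bag4, a BAG-domain exchange factor of Hsp70, fell by 0.91 (SE 0.12) in p50-/-IL10-/- cells and fell by 0.74 (SE 0.12) in IL10-/- cells. These calls for Dnaja2, Stip1 and Bag4 held with each array left out in turn.

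Of 13 heat shock factors and heat-inducible partners 1 was called higher and 1 lower in p50-/-IL10-/- cells (median 0.01), and 0 higher and 1 lower in IL10-/- cells (median 0.03). Dnajb4, a heat-inducible J-domain protein, rose by 0.65 ± 0.12 in p50-/-IL10-/- cells. In IL10-/- cells Dnajb4 averaged 8.96 with LPS and 8.61 without stimulus and was not called. The interaction test did not call its LPS response different between the genotypes (0.31, adjusted p = 0.638). Bag3, a partner of Hsp70 and target of HSF1, fell by 0.60 (SE 0.12) in p50-/-IL10-/- cells and fell by 0.37 (SE 0.12) in IL10-/- cells, and in IL10-/- cells its call was lost without unstimulated array 1, unstimulated array 2 or LPS array 1 (adjusted p up to 0.253). The 11 mitochondrial chaperones and proteases had 6 called lower in p50-/-IL10-/- cells (median -0.32) and 4 in IL10-/- cells (median -0.18), with 0 higher in each, and the protease Htra2 fell by 0.87 (SE 0.10) in p50-/-IL10-/- cells and fell by 0.65 (SE 0.10) in IL10-/- cells. Of 12 subunits of the CCT chaperonin and its partner prefoldin 2 were called lower in p50-/-IL10-/- cells (median -0.19) and 0 by limma in IL10-/- cells (median -0.01, with 2 at an unadjusted p under 0.05). Of 18 genes of endoplasmic reticulum folding and the unfolded protein response, 2 were called lower in p50-/-IL10-/- cells (median -0.19), and 2 higher and 2 lower in IL10-/- cells (median -0.01). Dnajb9, a J-domain protein of that compartment, fell by 0.64 (SE 0.11) in p50-/-IL10-/- cells and fell by 0.56 (SE 0.11) in IL10-/- cells.

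With IL-10 added to LPS at most 2 genes of any list were called, where 6.57% of all genes were called in p50-/-IL10-/- cells and 6.17% in IL10-/- cells. The heat-inducible list had Dnajb4 lower in both genotypes, with differences of -0.74 ± 0.12 in p50-/-IL10-/- cells and -0.58 ± 0.12 in IL10-/- cells, and Chordc1 higher in IL10-/- cells. Of the cytosolic list Fkbp5, an Hsp90 co-chaperone, fell by 0.52 (SE 0.12) in p50-/-IL10-/- cells and fell by 0.80 (SE 0.12) in IL10-/- cells. The CCT list had 1 gene lower (Vbp1, -0.42, adjusted p = 0.044) and the endoplasmic reticulum list 1 higher (Herpud1) in p50-/-IL10-/- cells, against 0 by limma (2 at an unadjusted p under 0.05) and 1 higher (Creld2) in IL10-/- cells, and no mitochondrial gene was called by limma in either (unadjusted p under 0.05 for 3 in p50-/-IL10-/- and 4 in IL10-/- cells). Of 4 named genes in each genotype 1 kept its call with every array left out in turn, Dnajb4 in p50-/-IL10-/- cells and Fkbp5 in IL10-/- cells. The call of Vbp1 was also lost with a replicate block within genotypes (adjusted p = 0.0525) or shared by them (0.0523), with all probe sets in the fit (0.0553) and with only the groups compared (0.0678).

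Between the genotypes with LPS, where 5.66% of all genes were called higher and 6.72% lower, the endoplasmic reticulum list had 2 genes lower in p50-/-IL10-/- cells, and Herpud1, a membrane protein of protein disposal, read 9.18 in p50-/-IL10-/- cells and 10.56 in IL10-/- cells (-1.38 ± 0.15, adjusted p = 0.000329). The cytosolic list had 1 higher (Dnaja2, by 0.72 ± 0.15) and 3 lower, the CCT list 2 lower, the mitochondrial list 1 lower and the heat-inducible list 0 called, with 2 at an unadjusted limma p under 0.05. Of the 8 genes named by rule here, Herpud1 alone kept its call with each array left out. With LPS and IL-10, where 7.58% of all genes were called higher and 10.4% lower, the heat-inducible list had 2 lower, the cytosolic list 2 higher, the CCT list 4 lower, the endoplasmic reticulum list 1 higher and 4 lower, and the mitochondrial list 4 lower. Of the 11 genes named by rule there, 4 kept their calls with each array left out, Herpud1 (-0.89 ± 0.15), Htra2 (-0.63 ± 0.10), Chordc1 (-0.53 ± 0.08) and Stip1 (0.45 ± 0.08). Without stimulus, where 2.57% of all genes were called, the lists held 1 called gene, Ddit3, a stress transcription factor, which was higher in p50-/-IL10-/- cells (1.12 ± 0.15, adjusted p = 0.00313).

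Markers of other cells differed between the genotypes beside these results. Against no stimulus, LPS left 1 of 6 neutrophil markers called higher in p50-/-IL10-/- cells, and with IL-10 added to LPS 2 of 6 were called lower and 1 of 5 dendritic cell markers higher there, with no marker of another cell type called in IL10-/- cells in either comparison. The 6 measured neutrophil markers summed to 48.3 to 48.6 log2 with LPS and IL-10, 49.3 with LPS and 48.2 to 48.3 without stimulus in p50-/-IL10-/- cells, against 52.0 to 52.2, 53.0 to 53.1 and 52.8 to 53.3 in IL10-/- cells. They were called lower in p50-/-IL10-/- cells for 4 of 6 with LPS and IL-10, 6 of 6 with LPS and 5 of 6 without stimulus, and all 6 stood above the lower quartile in every group. The 5 stromal markers summed to 29.2 to 31.0 over the p50-/-IL10-/- arrays and 32.5 to 35.7 over the IL10-/- arrays, with 2, 3 and 2 called lower. The 5 dendritic cell markers summed to 32.8 to 34.2 in p50-/-IL10-/- cells and 30.0 to 31.1 in IL10-/- cells. In p50-/-IL10-/- cells 3 of 5 were called higher with LPS and IL-10, 1 with LPS and 1 without stimulus. Itgax read 10.48 to 10.72 in p50-/-IL10-/- cells and 7.84 to 7.97 in IL10-/- cells. Flt3 read 7.21 to 7.46 in p50-/-IL10-/- cells and 7.18 to 7.25 in IL10-/- cells. Zbtb46 read 5.20 to 5.50 and 5.27 to 5.42 in the same order. Xcr1 and Ccr7 lay under the lower quartile in every group. Over the lists of lymphocyte (B, T and NK), erythroid, and mast cell and basophil markers, 1 call was made between the genotypes, a mast cell and basophil marker lower with LPS. Macrophage markers differed too. Of 9, 2 were called higher and 2 lower in p50-/-IL10-/- cells with LPS, 1 higher and 3 lower with LPS and IL-10, and 0 without stimulus. Some were also called in every comparison of stimuli. The part of all these markers in the genotype differences was not tested. Fewer cells of a type and less RNA per cell cannot be told apart in these bulk samples.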

How the data were processed

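The deposited table holds log2 values of 22690 Affymetrix probe sets on 12 arrays, which the authors made with RMA, per the submitters' processing notes, which also name limma. Versions and options were not given in the sources used here. RMA gives all arrays 1 distribution of values after correcting background, so a change in total RNA is not visible. The number of arrays limits the precision.

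From these values, 64 control probe sets were dropped. Among the others 20380 carried 1 gene symbol, 691 several and 1555 none, and 20351 identifiers matched the mouse gene table, which changed 0 symbols. Each gene was read from its brightest probe set over all arrays (12393 genes, 4956 of them with more than 1). Groups came from the labels. limma 3.58.1 in R 4.3.3 fitted 1 mean per group over all 12 arrays (6 residual and 4.47 prior degrees of freedom), with 11 contrasts, two-sided, with calls where the Benjamini-Hochberg adjusted p over all genes was under 0.05. The median SE of a difference was 0.0998. With 2 arrays on each side, the smallest p of an exact permutation test is 0.333. The procedure was also run on simulated arrays with independent noise and few changed genes. Many more genes were called with LPS here, so that run does not show how reliable these calls are. A second fit used all 22626 probe sets.

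The 10 genes and the lists of partners and markers were chosen with earlier results of these data known. All 10 were to be described, with up to 2 called genes per list, contrast and direction (those with the largest differences) and the 3 most similar genes of at most 4 members. Promoters came from RefSeq. Replicate numbers were checked for pairing by correlating the deviations of same-numbered arrays from their group means. These ran from -0.49 to 0.28 within p50-/-IL10-/-, 0.40 to 0.59 within IL10-/- and -0.32 to 0.30 between genotypes. Same-numbered arrays thus deviated together within IL10-/-, but each group holds 2 numbers and the labels do not say what a number marks, so the block was kept as an alternative. Alternatives were fits of only the groups compared, median centring, replicate blocks, a filter on dim genes, all probe sets, a trended robust prior and each array left out. Figures were drawn with matplotlib 3.10.9 in Python 3.11.15.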

Additional observations from a re-analysis of the deposited data

How the results depend on the processing

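No called difference of a chaperone changed direction in any alternative. Of 1134 alternative values 45 had the other sign, all with 1 array left out and for differences of at most 0.25 that were called in neither fit. Over the 9 chaperones and 11 contrasts, 1075 alternative values kept the side of the threshold of the reported fit, 44 lost a call and 15 gained one. With 1 array left out in turn, the number called with LPS was 4 to 6 in p50-/-IL10-/- cells (7 with all arrays) and 4 to 6 in IL10-/- cells (5). For IL-10 added to LPS it was 2 throughout in p50-/-IL10-/- cells (2) and 0 to 2 in IL10-/- cells (1). For LPS with IL-10 against no stimulus it was 2 to 4 in p50-/-IL10-/- cells (4) and 0 to 2 in IL10-/- cells (2). Between the genotypes it was 0 to 1 with LPS and IL-10 (4), 1 to 4 with LPS (2) and 0 without stimulus (0), and it was 0 for both interactions, by limma. Fitting only the groups compared gave 0 for the IL-10 effect in IL10-/- cells, 6 for LPS with IL-10 against no stimulus in p50-/-IL10-/- cells and, between the genotypes, 7 with LPS and IL-10 and 1 with LPS. That fit has fewer arrays to estimate the spread from. The calls that held in every alternative were Hspa1a, Hspa1b, Hsph1 and Dnaja1 with LPS in p50-/-IL10-/- cells, Hspa1b, Hsph1 and Dnaja1 with LPS in IL10-/- cells, Hspa1a and Hspa1b with IL-10 in p50-/-IL10-/- cells, Hsph1 and Dnaja1 with LPS and IL-10 against no stimulus in p50-/-IL10-/- cells, and Hspa1a between the genotypes with LPS. With the replicate number as a block within genotypes, Hspa1b with LPS and IL-10 against no stimulus in p50-/-IL10-/- cells was called (0.63, adjusted p = 0.0187, 5 chaperones called). With a replicate block shared by the genotypes Hsph1 was called between them with LPS and IL-10 (-0.52, adjusted p = 0.0295, 5 called). The replicate block changed no other call of a chaperone. Outside the set, 43 of 78 calls named by the list rule, over 9 contrasts, were lost with some array left out, and the replicate block removed 1 of them, Vbp1 with IL-10 in p50-/-IL10-/- cells (adjusted p = 0.0525 within genotypes). Differences of chaperones near the lower quartile of the arrays, such as Hspa1a, may be compressed, which was not tested.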
